A study of Mus musculus with 6 samples.

Results

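The 33 genes described here encode the cyclins, kinases, checkpoint proteins, motors and cytokinesis factors of late G2 and mitosis, and were taken as a list of textbook mitosis genes. For each gene, the brightest probe set by its mean over the 6 arrays was used, among those assigned to 1 gene and not ending in _x_at where another existed. Of the 33 genes, 32 were measured in this way among 18194 genes in all, and cyclin B1 was not analysed here. The cells were immortalized mouse embryonic fibroblasts, of mixed background strain, in which Kdm5a had been deleted in every group. KDM5A is a demethylase of methylated lysine 4 of histone H3. The first group carried KDM5A-H483A, a mutant with alanine in place of a catalytic histidine, the second carried re-introduced wild-type KDM5A, and the third carried an empty vector. There were 2 arrays per group, from subconfluent cultures in DMEM with fetal bovine serum. The comparisons ask whether transcripts of the mitotic machinery depend on KDM5A in these cells, and whether they depend on its catalytic histidine. Arrays of a group are labelled biological replicates, but how their cultures were separated is not stated, so p-values measure only the spread between these samples. The sources used here do not give whether the cells were clones or pools, how they were immortalized or which promoter drove KDM5A.

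Mitotic genes are transcribed late in the cell cycle. Their promoters often carry CCAAT boxes bound by NF-Y and a cell cycle genes homology region (CHR), through which the DREAM complex represses them in resting cells and the MuvB core with B-Myb and FOXM1 activates them later. Cyclin-bound CDK1 drives entry into mitosis, the spindle checkpoint holds the anaphase-promoting complex in check until chromosomes are attached, and the midzone proteins then divide the cell. Because the transcripts are made by cycling cells, a lower level in bulk RNA can come from fewer cells in G2 and mitosis or from less RNA per cell, and the arrays cannot tell these apart.

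All values are log2 expression values made with RMA, which brings the arrays to a shared distribution, and 1 unit is a 2-fold difference in signal. Across genes, each pair of arrays had a Pearson's r between 0.978 and 0.995, as a description, since genes are not replicates. Kdm5a itself, on a probe set whose position relative to the deleted part is not given, read 6.11 and 5.89 in the KDM5A-H483A arrays, 5.96 and 5.83 in the wild-type arrays and 5.89 and 5.83 in the empty vector arrays. These 6 values were close to each other and do not check the labels. Mean levels of 10 of 11 fibroblast markers were above the median of all genes. The brightest were Col1a2, between 12.53 and 13.34, and Vim, between 12.77 and 13.39. Lum was the dimmest, between 3.80 and 6.09, with a mean at the 42.2nd percentile of genes. Markers of other lineages were mixed. Mean levels above the median of all genes were found for 3 of 8 leukocyte, 1 of 6 endothelial, 2 of 6 epithelial, 1 of 5 muscle and 3 of 6 neural markers. Among the neural markers, Nes lay between 7.91 and 8.56, Map2 between 7.57 and 7.99 and Sox2 between 5.75 and 6.71. Kdr of the endothelial list lay between 6.24 and 6.65 and Laptm5 of the leukocyte list between 6.03 and 6.68. Dim members included Ptprc, between 2.76 and 3.18, Pecam1, between 3.34 and 3.49, Cdh1, between 2.67 and 2.87, Myf5, between 2.37 and 2.72 and Olig2, between 2.33 and 2.66, while the lowest value of the whole table was 2.12. The epithelial keratin Krt19 read 5.42 and 7.01 in the KDM5A-H483A arrays, 5.25 and 6.30 in the wild-type arrays and 5.27 and 5.38 in the empty vector arrays. It was thus brighter on the second array of both KDM5A groups, and its part in the results was not tested.

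Promoter sequence was taken from RefSeq (build GRCm38.p6) as windows of 300 bases, 250 before and 50 after each start. Of the 32 genes, 25 had a window. Aurkb, Ccna2, Cdc25c, Foxm1, Kif20a, Pbk and Tpx2 had none. The motifs searched on both strands were TTTGAA and TTTAAA, which are forms of the CHR, and CCAAT. The form TTTAAA reads the same on both strands, and the others read TTCAAA and ATTGG on the opposite one. TTTGAA was found in 19 of the 25 mitotic genes, or 76% of them, against 20.2% of all 27025 genes with a window. The form TTTAAA was found in 7 (28%), against 14.9%. CCAAT was found in 20 of the 25 (80%), against 41.1% of all genes, and at least 2 copies in 14 (56%), against 13.3%. Either form of the CHR together with a CCAAT box was found in 18 of the 25 (72%), against 12.2% of all genes. Mad2l1 and Nusap1 held none of the 3. A match is a description of the letters and not a site shown to be bound. The following 5 stretches of 250 bases before the start are shown because they carry the densest or best-known arrangements of these motifs and belong to genes with differing array patterns: Ccnb2 at chr9:70421555-70421804 on the minus strand, Cdk1 at chr10:69352913-69353162 on the minus strand, Top2a at chr11:99024190-99024439 on the minus strand, Ube2c at chr2:164769679-164769928 on the plus strand, and Mki67 at chr7:135716380-135716629 on the minus strand. Each is written 5′ to 3′ along the gene and ends at the base before the start. Capitals mark TTTGAA and CCAAT on either strand.
Ccnb2: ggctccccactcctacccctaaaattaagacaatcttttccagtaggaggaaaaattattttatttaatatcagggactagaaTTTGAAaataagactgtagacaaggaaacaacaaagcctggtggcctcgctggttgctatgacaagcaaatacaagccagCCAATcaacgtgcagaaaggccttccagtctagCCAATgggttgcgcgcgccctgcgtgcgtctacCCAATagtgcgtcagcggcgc
Cdk1: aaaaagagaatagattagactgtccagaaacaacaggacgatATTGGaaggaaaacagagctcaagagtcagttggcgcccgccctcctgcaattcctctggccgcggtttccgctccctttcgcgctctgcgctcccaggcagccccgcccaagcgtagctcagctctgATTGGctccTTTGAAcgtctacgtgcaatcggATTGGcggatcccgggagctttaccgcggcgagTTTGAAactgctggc
Top2a: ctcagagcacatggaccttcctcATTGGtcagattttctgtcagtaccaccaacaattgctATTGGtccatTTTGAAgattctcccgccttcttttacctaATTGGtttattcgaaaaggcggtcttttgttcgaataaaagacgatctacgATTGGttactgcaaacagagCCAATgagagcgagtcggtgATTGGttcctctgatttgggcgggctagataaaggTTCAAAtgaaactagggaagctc
Ube2c: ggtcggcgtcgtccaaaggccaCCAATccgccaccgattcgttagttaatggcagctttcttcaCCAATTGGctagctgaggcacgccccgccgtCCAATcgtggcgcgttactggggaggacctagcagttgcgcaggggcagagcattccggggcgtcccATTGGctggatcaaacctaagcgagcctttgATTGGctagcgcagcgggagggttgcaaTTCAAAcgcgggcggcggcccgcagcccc
Mki67: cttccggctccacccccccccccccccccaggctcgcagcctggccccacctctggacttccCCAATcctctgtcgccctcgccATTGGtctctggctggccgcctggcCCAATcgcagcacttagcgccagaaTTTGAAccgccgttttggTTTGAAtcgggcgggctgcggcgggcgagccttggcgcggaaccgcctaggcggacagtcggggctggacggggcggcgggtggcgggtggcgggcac
Top2a and Ube2c held 6 CCAAT boxes each, and in Ube2c a pair overlaps on opposite strands. Cdk1 had TTTGAA at -71 and -15 relative to the start, counted to the leftmost base of the match, and Mki67 had it at -116 and -98. Ccnb2 had 3 evenly spaced CCAAT boxes at -87, -54 and -21, and its second TTTGAA lay past the printed stretch.

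**Figure D1:**
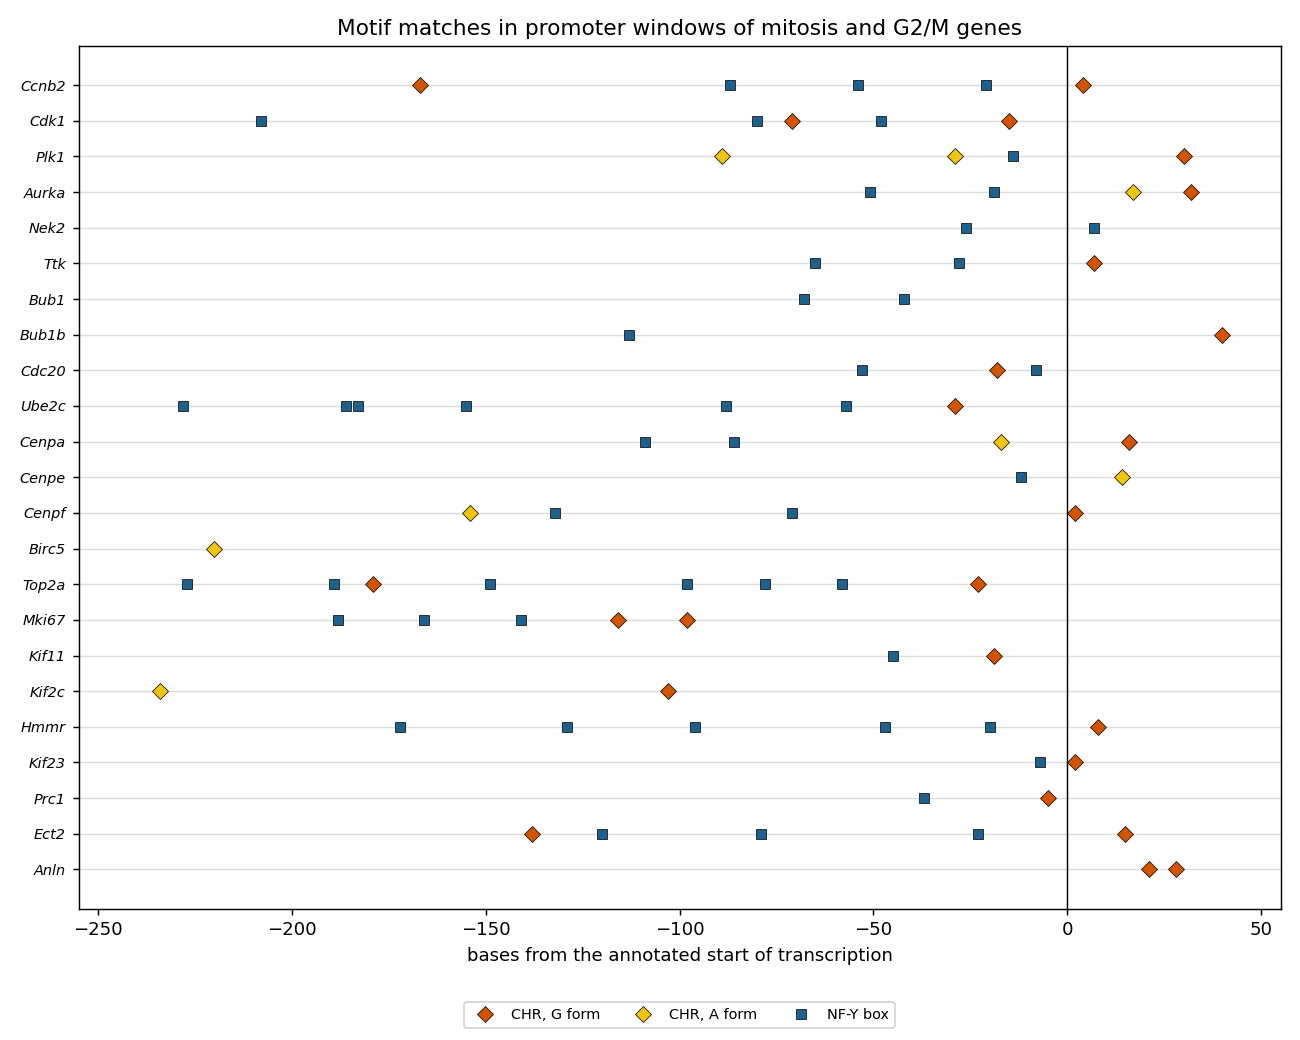
Positions of motif matches in the promoter windows of mitotic genes with at least 1 match, in bases from the start site on the horizontal axis, with 1 window per gene, orange diamonds for TTTGAA, yellow diamonds for TTTAAA and blue squares for CCAAT. Most CCAAT boxes lie upstream of the start, and many CHR matches lie close to it on either side.

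No mitotic gene passed the test in any comparison. In KDM5A-H483A against empty vector, limma called 0 of 32 at an adjusted p under 0.05, as it called 0 of all 18194 genes (0%), and 0 of 32 had an unadjusted p under 0.05, against 301 genes (1.65%). In wild-type KDM5A against empty vector, limma called 0 of 32 and 0 of 18194 (0%), with an unadjusted p under 0.05 for 2 of 32, Aurkb and Ccnb2, against 459 genes (2.52%). In KDM5A-H483A against wild-type KDM5A, limma called 0 of 32 and 0 of 18194 (0%), with an unadjusted p under 0.05 for the same 2 genes, against 694 (3.81%). The median difference of the 32 genes was 0.02 for KDM5A-H483A minus empty vector, 0.03 for wild-type KDM5A minus empty vector and -0.11 for KDM5A-H483A minus wild-type KDM5A. Over all genes the medians were 0.001, 0.0049 and -0.0069. The typical 95% confidence interval of a mitotic gene reached 0.43 to either side of its difference. That interval is not adjusted for the number of genes tested, so a difference beyond 0.43 need not pass. Aurkb, at 0.55 for wild-type KDM5A minus empty vector, did not. The KDM5A-H483A mean was above that of the empty vector for 21 of 32 genes, against 50.2% of all genes, and the wild-type KDM5A mean for 18 of 32, against 51.3%. The KDM5A-H483A mean was above that of wild-type KDM5A for 13 of 32, against 48.4%. These counts moved with single arrays: the first was 2 of 32 when the second KDM5A-H483A array was left out, 23 when the first was, and 14 with the mean of all probe sets. For wild-type KDM5A minus empty vector it was 26 when wild-type replicate 1 was left out and 9 when replicate 2 was. Between the KDM5A groups it ran between 3, with KDM5A-H483A replicate 2 left out, and 20, with wild-type replicate 2 left out. The 3 comparisons share arrays.

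Counted by whether the arrays of the groups overlap, the lists of genes differed between comparisons. Both KDM5A-H483A arrays lay below both empty vector arrays for 7 of 32 genes (21.9%), against 14.6% of all genes, and above them for 0 of 32, against 13.6%. The 7 were Ccna2, Ccnb2, Cdk1, Ect2, Foxm1, Kif11 and Mad2l1. With wild-type KDM5A, both arrays lay above both empty vector arrays for 6 of 32, against 16.5% of all genes, and below them for 5 of 32, against 15.4%. The 6 were Anln, Aurkb, Ccnb2, Pbk, Plk1 and Ube2c, and the 5 were Bub1b, Ccna2, Cdc20, Cdc25c and Top2a, so both shares stood near those of all genes. For Ccna2 the highest wild-type KDM5A array read 9.465 and the lowest empty vector array 9.4653, close to a tie. The gap was also narrow for Top2a (9.5416 against 9.5452), Cdc20 (9.0469 against 9.0548) and Bub1b (8.1464 against 8.1552). Both KDM5A-H483A arrays lay below both wild-type KDM5A arrays for 8 of 32 (25%), against 16.1% of all genes, and above them for 1, Cdc25c, against 14.9%. The 8 were Anln, Aurkb, Ccna2, Ccnb2, Cdk1, Kif11, Prc1 and Ube2c.

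**Figure D2:**
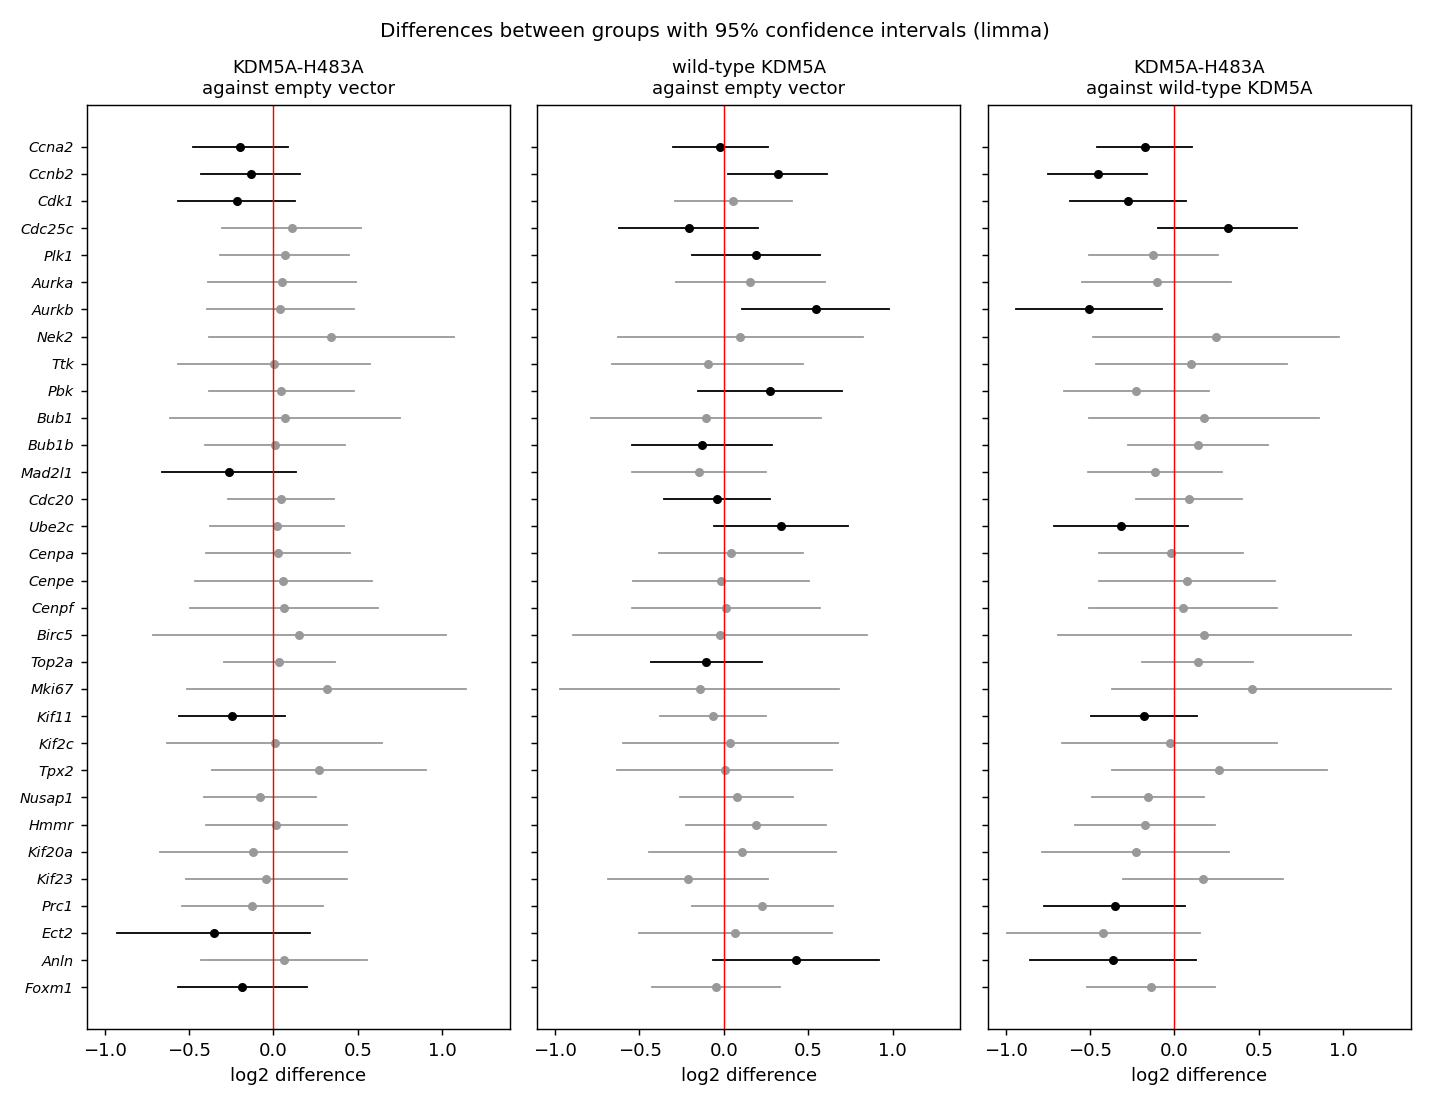
Log2 differences of the 32 measured genes in the 3 comparisons, with limma's 95% confidence intervals, ordered by role, where black marks genes whose arrays do not overlap between the groups and grey the others. Aurkb and Ccnb2 are the only genes with intervals that exclude 0, and this holds in both comparisons that involve wild-type KDM5A.

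Cyclins and CDK1 start mitosis. Cyclin B2 (Ccnb2), a partner of CDK1, read 8.18 and 8.14 in the KDM5A-H483A arrays, 8.67 and 8.56 in the wild-type arrays and 8.24 and 8.35 in the empty vector arrays. Wild-type KDM5A arrays were the highest, KDM5A-H483A arrays the lowest, and no groups overlapped. Its difference was -0.46 for KDM5A-H483A minus wild-type KDM5A (95% confidence interval -0.75 to -0.16, a 1.37-fold lower signal), with a limma unadjusted p of 0.00854 and an adjusted p of 0.928. For wild-type KDM5A minus empty vector it was 0.32 (95% confidence interval 0.03 to 0.61), with a limma unadjusted p of 0.0365 and an adjusted p of 1. Neither difference passed the test.

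Cdk1, the kinase that cyclins A and B activate, read 10.86 and 10.70 in the KDM5A-H483A arrays, 11.04 and 11.07 in the wild-type arrays and 10.86 and 11.14 in the empty vector arrays. Both KDM5A-H483A arrays were below the wild-type KDM5A arrays, while the highest of them equalled the lowest empty vector array to 2 decimals. Cyclin A2 (Ccna2), which acts in S phase and G2, read 9.33 and 9.23 in the KDM5A-H483A arrays, 9.45 and 9.47 in the wild-type arrays and 9.49 and 9.47 in the empty vector arrays. The KDM5A-H483A arrays were again the lowest, but all 6 arrays lay within 0.26 of each other. A second Ccna2 probe set read 8.54 and 8.92 in the KDM5A-H483A arrays, 8.46 and 8.98 in the wild-type arrays and 8.68 and 8.62 in the empty vector arrays, and there the groups overlapped. Cdc25c, a phosphatase that removes inhibitory phosphates from CDK1, read 5.36 and 5.80 in the KDM5A-H483A arrays, 5.31 and 5.22 in the wild-type arrays and 5.44 and 5.51 in the empty vector arrays. Its mean level was at the 48.7th percentile of genes, and wild-type KDM5A lay below the other groups on this probe set. A brighter Cdc25c probe set, one that can cross-hybridize, read 5.87 and 6.45 in the KDM5A-H483A arrays, 5.66 and 6.20 in the wild-type arrays and 6.15 and 6.08 in the empty vector arrays. There all groups overlapped. Of the 4 measured genes of this group, 3 had lower KDM5A-H483A means than the empty vector and wild-type KDM5A, with Cdc25c the exception.

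The mitotic kinases had a median difference of 0.17 for wild-type KDM5A minus empty vector, and 3 of the 6 had both wild-type KDM5A arrays above both empty vector arrays, against 16.5% of all genes. Aurora kinase B (Aurkb), the catalytic subunit of the chromosomal passenger complex, read 5.89 and 6.13 in the KDM5A-H483A arrays, 6.32 and 6.71 in the wild-type arrays and 5.86 and 6.08 in the empty vector arrays. Both wild-type KDM5A arrays were above all other arrays, and the KDM5A-H483A and empty vector arrays overlapped. Its difference was 0.55 for wild-type KDM5A minus empty vector (95% confidence interval 0.11 to 0.98, a 1.46-fold higher signal), with a limma unadjusted p of 0.0215 and an adjusted p of 1. For KDM5A-H483A minus wild-type KDM5A it was -0.51 (95% confidence interval -0.94 to -0.07), with a limma unadjusted p of 0.0292 and an adjusted p of 0.928. A second, brighter Aurkb probe set, one that can cross-hybridize, gave 0.27 and -0.29 for these differences. There too both wild-type KDM5A arrays were above all other arrays. With the brightest probe set of each gene, those ending in _x_at included, 1 mitotic gene had a limma unadjusted p under 0.05 in each of these comparisons, against 2.

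Polo-like kinase Plk1, which acts in centrosome maturation and cytokinesis, read 7.39 and 7.72 in the KDM5A-H483A arrays, 7.66 and 7.70 in the wild-type arrays and 7.39 and 7.59 in the empty vector arrays. The wild-type KDM5A arrays exceeded the empty vector arrays, and the KDM5A-H483A arrays overlapped both. Aurora kinase A (Aurka), which acts at spindle poles, read 7.98 and 8.33 in the KDM5A-H483A arrays, 8.10 and 8.43 in the wild-type arrays and 8.02 and 8.19 in the empty vector arrays, with the second array the higher in every group. Pbk, a kinase active in mitosis, read 8.79 and 9.11 in the KDM5A-H483A arrays, 9.00 and 9.36 in the wild-type arrays and 8.86 and 8.94 in the empty vector arrays. Wild-type KDM5A again lay above the empty vector. The centrosomal kinase Nek2 read 5.89 and 6.85 in the KDM5A-H483A arrays, 5.96 and 6.28 in the wild-type arrays and 6.04 and 6.01 in the empty vector arrays. Its second KDM5A-H483A array stood apart from the other 5, and its difference for KDM5A-H483A minus empty vector was 0.34, or -0.13 without that array and 0.82 without the first. Another Nek2 probe set gave 0.07. Ttk (Mps1), which starts the spindle checkpoint, read 7.13 and 7.45 in the KDM5A-H483A arrays, 6.94 and 7.43 in the wild-type arrays and 7.51 and 7.05 in the empty vector arrays, and its groups overlapped. All 6 kinases had a KDM5A-H483A mean above that of the empty vector, by 0.01 to 0.34, but every first KDM5A-H483A array lay below the empty vector mean. Arrays of the 2 groups did not overlap for 0 of the 6, against 13.6% of all genes higher and 14.6% lower.

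The spindle checkpoint and anaphase-promoting complex group spread in both directions. Ube2c, the ubiquitin-conjugating enzyme of that complex, read 8.49 and 8.80 in the KDM5A-H483A arrays, 8.86 and 9.07 in the wild-type arrays and 8.53 and 8.73 in the empty vector arrays. Wild-type KDM5A was above both other groups, by 0.34 over the empty vector, and the KDM5A-H483A difference from wild-type KDM5A was -0.32. Mad2l1, which binds and inhibits Cdc20, read 8.67 and 8.84 in the KDM5A-H483A arrays, 8.68 and 9.06 in the wild-type arrays and 9.08 and 8.95 in the empty vector arrays. The KDM5A-H483A arrays were below the empty vector arrays, by a difference of -0.26 (95% confidence interval -0.66 to 0.13). Cdc20, the activator of the complex, read 9.00 and 9.23 in the KDM5A-H483A arrays, 9.05 and 9.02 in the wild-type arrays and 9.05 and 9.09 in the empty vector arrays, and its wild-type KDM5A arrays lay just below those of the empty vector. The checkpoint kinase Bub1 read 7.06 and 7.73 in the KDM5A-H483A arrays, 6.89 and 7.55 in the wild-type arrays and 7.32 and 7.33 in the empty vector arrays. Its second array was far above its first in both KDM5A groups, and the empty vector arrays were close together. BubR1 (Bub1b), a checkpoint protein, read 7.97 and 8.37 in the KDM5A-H483A arrays, 8.15 and 7.92 in the wild-type arrays and 8.17 and 8.16 in the empty vector arrays. Its wild-type KDM5A arrays were below the empty vector arrays, the higher of them only just.

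The centromere and chromosome group held both genes whose 6 arrays spanned 1 unit or more, Birc5 and Mki67. These were 2 of 32 mitotic genes (6.25%), near the 6.29% of all genes with such a span. Survivin (Birc5), a partner of Aurora B in the passenger complex, read 7.96 and 8.90 in the KDM5A-H483A arrays, 7.87 and 8.64 in the wild-type arrays and 8.37 and 8.19 in the empty vector arrays. The second array of each KDM5A group was above every first array and both empty vector arrays. The proliferation marker Mki67, which coats mitotic chromosomes, read 7.23 and 7.96 in the KDM5A-H483A arrays, 6.92 and 7.35 in the wild-type arrays and 7.67 and 6.88 in the empty vector arrays. Its KDM5A-H483A minus wild-type KDM5A difference of 0.46 had an interval of -0.37 to 1.29. Its empty vector arrays alone differed by 0.79, and KDM5A-H483A minus empty vector was 0.32, or 0.71 without the first empty vector array and -0.08 without the second. DNA topoisomerase II alpha (Top2a) read 9.50 and 9.74 in the KDM5A-H483A arrays, 9.43 and 9.54 in the wild-type arrays and 9.63 and 9.55 in the empty vector arrays. Its wild-type KDM5A arrays lay below the empty vector arrays, the higher of them only just. The centromeric histone Cenpa read 8.30 and 8.71 in the KDM5A-H483A arrays, 8.41 and 8.63 in the wild-type arrays and 8.55 and 8.41 in the empty vector arrays. The kinetochore motor Cenpe read 7.03 and 7.37 in the KDM5A-H483A arrays, 6.84 and 7.41 in the wild-type arrays and 7.11 and 7.17 in the empty vector arrays. Cenpf, a kinetochore protein, read 7.31 and 7.72 in the KDM5A-H483A arrays, 7.18 and 7.75 in the wild-type arrays and 7.55 and 7.35 in the empty vector arrays. For these 3 genes all groups overlapped. The 6 KDM5A-H483A means were above those of the empty vector, by 0.03 to 0.32, but again every first KDM5A-H483A array lay below the empty vector mean, and both KDM5A groups had higher second arrays for all 6. Arrays of KDM5A-H483A and the empty vector overlapped for all 6.

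Among the spindle motors and assembly factors, Kif11 (Eg5), the kinesin that separates spindle poles, read 6.79 and 6.70 in the KDM5A-H483A arrays, 6.93 and 6.91 in the wild-type arrays and 6.88 and 7.10 in the empty vector arrays. Its KDM5A-H483A arrays were below those of both other groups, with a difference of -0.24 from the empty vector (95% confidence interval -0.56 to 0.07). A second Kif11 probe set gave -0.04 against the empty vector, with overlapping arrays, and -0.33 for KDM5A-H483A minus wild-type KDM5A, and another gave -0.03 and -0.18. Tpx2, which activates Aurora A on the spindle, read 7.23 and 7.86 in the KDM5A-H483A arrays, 7.00 and 7.55 in the wild-type arrays and 7.38 and 7.17 in the empty vector arrays, and its second array was the higher in both KDM5A groups. Kif2c, a microtubule depolymerase at centromeres, read 5.28 and 6.01 in the KDM5A-H483A arrays, 5.45 and 5.90 in the wild-type arrays and 5.65 and 5.62 in the empty vector arrays. Nusap1, which bundles spindle microtubules, read 8.09 and 7.88 in the KDM5A-H483A arrays, 8.21 and 8.08 in the wild-type arrays and 8.14 and 7.99 in the empty vector arrays, and its first array was the higher in every group. Hmmr, a spindle-associated protein, read 8.96 and 9.06 in the KDM5A-H483A arrays, 8.96 and 9.40 in the wild-type arrays and 8.93 and 9.06 in the empty vector arrays. On the probe sets used, no gene of this group other than Kif11 separated any groups. A second Hmmr probe set read 7.34 and 7.54 in the KDM5A-H483A arrays, 7.63 and 7.91 in the wild-type arrays and 7.27 and 7.55 in the empty vector arrays. There, and on an Hmmr probe set that can cross-hybridize, wild-type KDM5A lay above both other groups. On another, dimmer Hmmr probe set the wild-type KDM5A and empty vector arrays overlapped.

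The 5 midzone and cytokinesis genes had a median difference of -0.35 for KDM5A-H483A minus wild-type KDM5A. Ect2, the RhoA exchange factor that starts the contractile ring, read 9.73 and 9.30 in the KDM5A-H483A arrays, 9.65 and 10.22 in the wild-type arrays and 9.75 and 9.98 in the empty vector arrays. Its KDM5A-H483A arrays lay below the empty vector arrays, by a difference of -0.35 (95% confidence interval -0.93 to 0.22), and differed by 0.43 from each other. Anillin (Anln), a ring scaffold, read 9.69 and 9.75 in the KDM5A-H483A arrays, 9.84 and 10.34 in the wild-type arrays and 9.49 and 9.83 in the empty vector arrays. The wild-type KDM5A arrays were above both other groups, by 0.43 over the empty vector (95% confidence interval -0.06 to 0.92). A second, dimmer Anln probe set gave 0.03. Prc1, which bundles midzone microtubules, read 8.34 and 8.56 in the KDM5A-H483A arrays, 8.60 and 9.00 in the wild-type arrays and 8.54 and 8.61 in the empty vector arrays, and KDM5A-H483A lay below wild-type KDM5A. A second Prc1 probe set gave -0.17 for that difference, with overlapping arrays, against -0.35 for the one used. The kinesins of the midzone overlapped in all groups. Kif20a read 8.02 and 8.29 in the KDM5A-H483A arrays, 8.08 and 8.68 in the wild-type arrays and 8.13 and 8.42 in the empty vector arrays. Kif23 read 6.26 and 6.62 in the KDM5A-H483A arrays, 6.05 and 6.50 in the wild-type arrays and 6.50 and 6.47 in the empty vector arrays. Foxm1, the transcription factor of this set, read 7.81 and 7.74 in the KDM5A-H483A arrays, 7.74 and 8.09 in the wild-type arrays and 7.87 and 8.05 in the empty vector arrays. Its KDM5A-H483A arrays were below the empty vector arrays and overlapped those of wild-type KDM5A, and its other probe sets gave -0.04 and -0.04 against the empty vector, against -0.18 here.

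**Figure D3:**
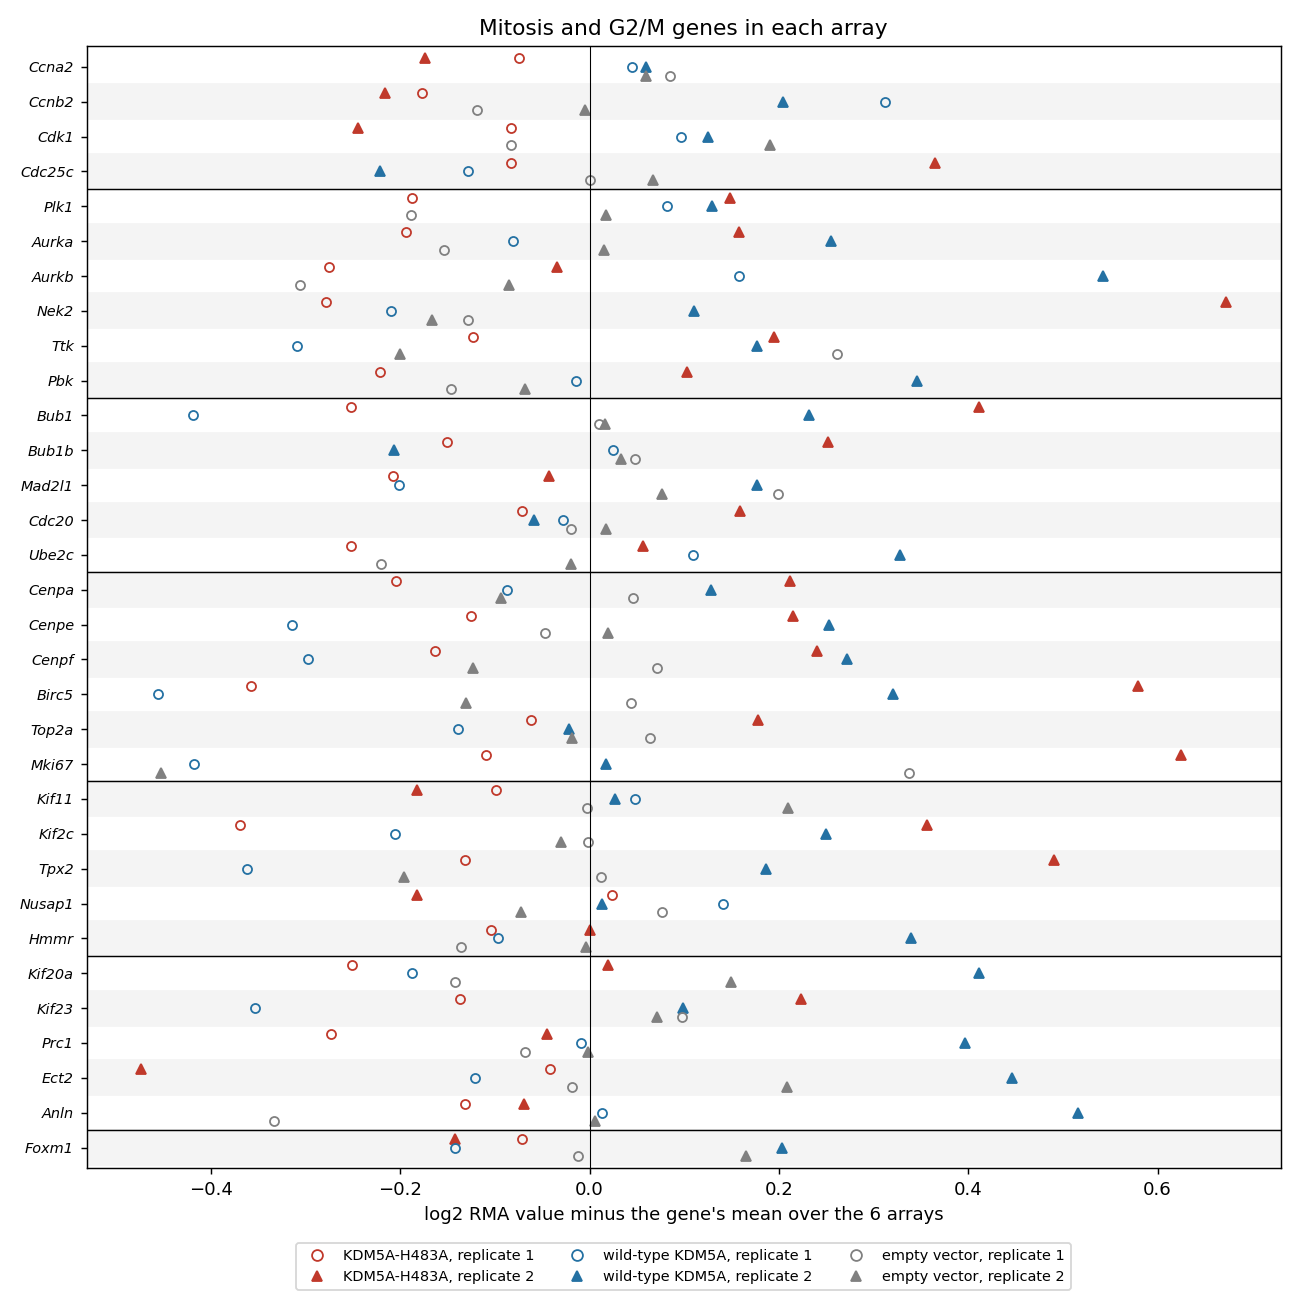
Log2 RMA value of each of the 32 measured genes on each of the 6 arrays, minus the gene's mean over them, ordered by role, with 1 colour per group, open circles for replicate 1 and triangles for replicate 2. In most genes the points of 1 group overlap those of another. Aurkb, Ccnb2, Ube2c and, narrowly, Anln show the wild-type KDM5A arrays on their own at the high end.

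Several mitotic genes differed as much between the 2 arrays of a group as between groups. Within KDM5A-H483A, the second array was higher for 25 of 32 mitotic genes, against 49.6% of all genes, with a median first minus second of -0.31. Within wild-type KDM5A, it was higher for 26 of 32, against 47.3% of all genes, with a median of -0.37. Within the empty vector group, it was higher for 18 of 32, with a median of -0.05. The same 22 genes had a higher second array in both KDM5A groups, a pattern held by 28.4% of all genes, while Ccnb2, Kif11 and Nusap1 had a higher first array in both. These are descriptions, with no test.

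The same arrays differed in other lists. DNA replication and G1/S genes had medians of -0.52, -0.33 and 0.07 for first minus second in KDM5A-H483A, wild-type KDM5A and the empty vector. The 92 further mitotic genes had -0.24, -0.22 and 0.02. The median of the fibroblast markers had the opposite sign in the KDM5A groups, with 0.92, 0.85 and 0.19. The first array was the higher for 8 of 11 markers with KDM5A-H483A, 11 of 11 with wild-type KDM5A and 9 of 11 with the empty vector. Over all genes these shares were 50.2%, 52.5% and 50.3%. Thy1, Vim and S100a4 were higher on the second KDM5A-H483A array. Col3a1, a fibrillar collagen, read 12.90 and 10.24 in the KDM5A-H483A arrays, 13.13 and 10.51 in the wild-type arrays and 12.70 and 12.35 in the empty vector arrays. The log2 of the summed fibroblast marker signal ran from 14.91 to 15.36 with KDM5A-H483A, from 14.74 to 15.44 with wild-type KDM5A and from 15.12 to 15.21 with the empty vector. The fibroblast marker Lum read 5.52 and 3.92 in the KDM5A-H483A arrays, 6.09 and 3.80 in the wild-type arrays and 5.85 and 5.01 in the empty vector arrays. The part of these markers in the mitotic gene values was not tested.

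The medians between groups followed these arrays. Without the first KDM5A-H483A array, the median of KDM5A-H483A minus empty vector was 0.16, and without the second it was -0.13. For wild-type KDM5A minus empty vector the median was 0.24 when the first wild-type KDM5A array was dropped and -0.06 when the second was. For KDM5A-H483A minus wild-type KDM5A it was 0.07 without the second wild-type KDM5A array and 0.06 without the first KDM5A-H483A array. Dropping the first wild-type KDM5A array gave -0.21, and dropping the second KDM5A-H483A array gave -0.19. The sign of each median thus turned with the array left out.

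**Figure D4:**
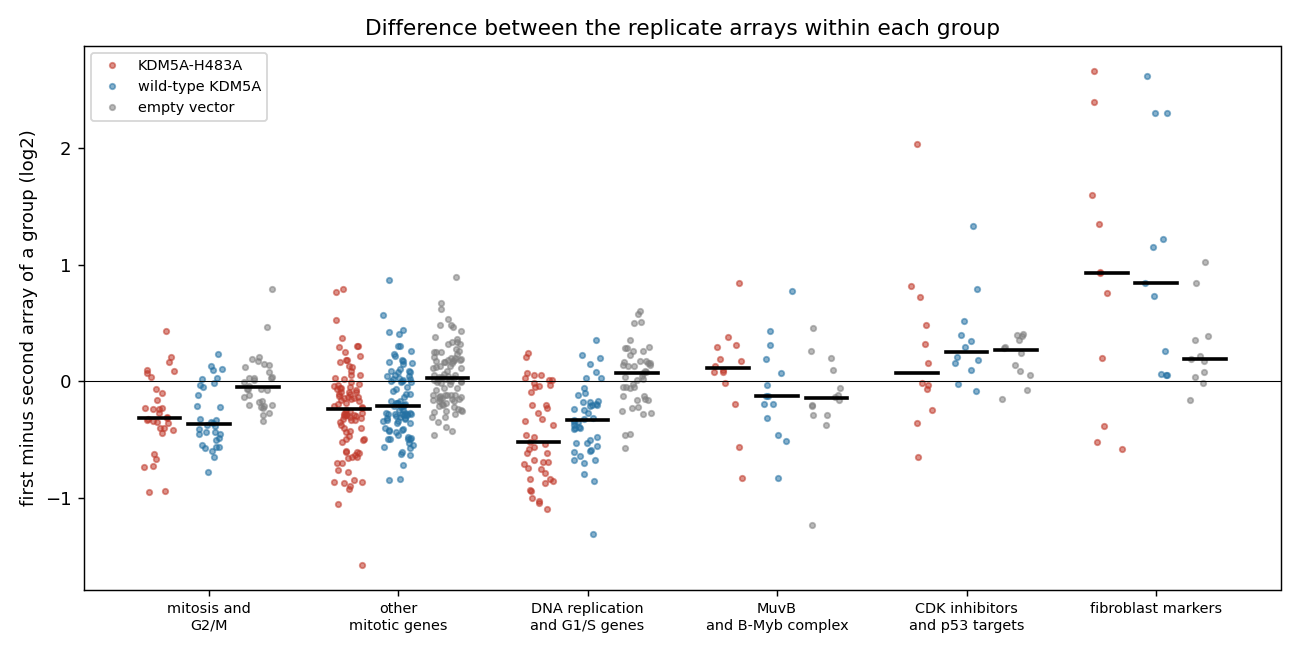
First minus second array, in log2 units, for the genes of 6 lists within each group, with 1 point per gene and a black bar at each median. For mitotic and DNA replication genes the bars lie below 0 in both KDM5A groups and for fibroblast markers above 0, and in these lists the empty vector bar is the closest to 0.

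Related genes were described by counts, from lists chosen with earlier results known. Of 94 further mitotic genes 92 were measured, and limma called 0 of 92 in each comparison, with an unadjusted p under 0.05 for 2 when KDM5A-H483A was set against empty vector, 2 when wild-type KDM5A was, and 6 between the KDM5A groups, against 1.65%, 2.52% and 3.81% of all genes. The highest differences of KDM5A-H483A minus empty vector were 0.69 for Kifc1, a minus-end kinesin, 0.59 for Ndc80, an outer kinetochore subunit, and 0.56 for Kif22, a chromokinesin. The lowest were -0.44 for Plk4, the centriole duplication kinase, -0.39 for Depdc1a and -0.37 for Cenpp, a centromere protein. For wild-type KDM5A minus empty vector, the highest were 0.43 for Ska3, 0.35 for Zwint and 0.31 for Racgap1, and the lowest were -0.64 for Ncapg and -0.45 for Smc4, both condensin subunits, and -0.30 for Shcbp1. For KDM5A-H483A minus wild-type KDM5A, the highest were 0.80 for Kif22, 0.79 for Ndc80 and 0.61 for Tacc3, and the lowest were -0.62 for Ska2, -0.45 for Ncapd3 and -0.41 for Cdc27, an anaphase-promoting complex subunit. None of these passed the test. Kif22 read 4.91 and 6.49 in the KDM5A-H483A arrays, 4.76 and 5.03 in the wild-type arrays and 5.38 and 4.89 in the empty vector arrays. Its interval for KDM5A-H483A minus wild-type KDM5A was -0.35 to 1.96. In the KDM5A-H483A arrays, Ndc80 read 5.73 and 6.63, Tacc3 6.70 and 7.56 and Kifc1 4.37 and 5.42. For Kif22, Ndc80, Tacc3 and Kifc1, the second KDM5A-H483A array was the highest of the 6 arrays.

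The MuvB, DREAM, B-Myb and NF-Y genes, which bind or regulate CHR and CCAAT promoters, numbered 14, and limma called 0 of 14 in each comparison. KDM5A-H483A minus empty vector was highest for Nfyb (0.48), a subunit of NF-Y, Mybl2 (0.30), which encodes B-Myb, and Lin37 (0.14), and lowest for Rbbp4 (-0.61), Rbl1 (-0.48), which encodes the pocket protein p107, and Lin9 (-0.25). Wild-type KDM5A minus empty vector was highest for Rbl2 (0.40), which encodes p130, Nfyc (0.31) and Lin37 (0.18), and lowest for E2f5 (-0.40), Nfyb (-0.11) and Lin52 (-0.04). KDM5A-H483A minus wild-type KDM5A was highest for Nfyb (0.59), E2f5 (0.46) and Mybl2 (0.18), and lowest for Rbbp4 (-0.62), Rbl1 (-0.62) and Nfyc (-0.47). Rbbp4 read 8.12 and 7.94 in the KDM5A-H483A arrays and 8.03 and 9.26 in the empty vector arrays. These overlapped, and the interval of that difference was -1.52 to 0.29. Rbl1 read 7.58 and 6.74 in the KDM5A-H483A arrays and 7.59 and 7.70 in the empty vector arrays, with an interval of -1.12 to 0.15. For Rbbp4 and Rbl1, both KDM5A-H483A arrays lay below both wild-type KDM5A arrays. Unadjusted p was under 0.05 for 0, 1 and 3 of the 14, against 1.65%, 2.52% and 3.81% of all genes.

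Of 47 DNA replication and G1/S genes 45 were measured, and limma called 0 of 45 in each comparison, as it called 0% of all genes. An unadjusted p under 0.05 was found for 0 of 45 in each, against 1.65%, 2.52% and 3.81% of all genes. Their medians were 0.09, -0.03 and 0.10 for KDM5A-H483A minus empty vector, wild-type KDM5A minus empty vector and KDM5A-H483A minus wild-type KDM5A. Mcm6, a subunit of the replicative helicase, had 0.41 in KDM5A-H483A minus empty vector, as had Gins4, and 0.57 in KDM5A-H483A minus wild-type KDM5A, followed there by Ccne1 at 0.52. Wild-type KDM5A minus empty vector was 0.43 for Rrm2, a subunit of ribonucleotide reductase, and -0.34 for Mcm3. Of 12 CDK inhibitors and p53 targets, limma called 0 in each comparison, with an unadjusted p under 0.05 for 3, 1 and 0, against the same shares of all genes. Mdm2, which targets p53 for degradation, had 0.63, and Cdkn1b, which encodes the CDK inhibitor p27, had -0.54 in KDM5A-H483A minus empty vector. Cdkn1a, which encodes p21, and Ccng1 each had 0.49 in wild-type KDM5A minus empty vector. Btg2 had -0.59 and Cdkn1b had -0.58 in KDM5A-H483A minus wild-type KDM5A. Btg2 read 8.89 and 6.85 in the KDM5A-H483A arrays and 9.13 and 7.80 in the wild-type arrays, with an interval of -2.25 to 1.07. Cdkn1b read 8.57 and 7.75 in the KDM5A-H483A arrays, 8.79 and 8.70 in the wild-type arrays and 8.63 and 8.78 in the empty vector arrays.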

How the data were processed

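Total RNA of 6 samples was hybridised to Affymetrix mouse M430 2.0 arrays, 2 per group. The deposited values are log2 signals in 1 table. The authors computed them with RMA, according to the submitters' processing notes. That method corrects background, applies quantile normalization and fits 1 value per probe set. The sources used here give no RMA version. Array medians lay between 4.55 and 4.60, and no further scaling was applied. Quantile normalization hides a change in total RNA per cell, and RMA compresses differences of dim genes. Precision is limited by the number of arrays. The labelling kit in the labels' protocols is one for whole transcripts, and these probe sets lie near 3′ ends.

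Of 45101 probe sets, 34958 had 1 gene symbol, 932 had several and 9211 had none listed in the annotation used here. Symbols were updated through Entrez IDs to the RefSeq gene table, which matched 34754. This gave 18194 genes with 1 probe set each, chosen as stated above. Of the 32 mitotic genes, 22 had several probe sets.

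Differences were tested with limma 3.58.1 in R 4.3.3: 1 mean per group over 6 arrays, moderated variances (3 residual and 3.42 prior degrees of freedom), two-sided, Benjamini-Hochberg over all genes, with a threshold of 0.05. The procedure was tested on simulated data. Alternatives were a replicate block, other probe set rules, other scalings, a filter on dim genes, other limma settings and leaving out each array. The members and gene lists were chosen with earlier results of these data known. Every member was named. Of related lists the rule named the 3 highest and 3 lowest differences (further mitotic genes, MuvB list) or the 2 largest absolute differences (G1/S, CDK inhibitor lists).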

Additional observations from a re-analysis of the deposited data

How the results depend on the processing

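With 2 arrays a group, limma called 0 mitotic genes and 0 of all genes at an adjusted p under 0.05 in each comparison under every alternative run. The smallest adjusted p of a mitotic gene over the alternatives was 0.281 for KDM5A-H483A against empty vector, 0.967 for wild-type KDM5A against empty vector and 0.231 for KDM5A-H483A against wild-type KDM5A. The smallest in both comparisons with KDM5A-H483A came without the first KDM5A-H483A array, where the lone second array is assumed to vary like the other groups. With no array of the compared groups left out, limma's unadjusted p was under 0.05 for 285 to 502, 420 to 713 and 416 to 922 of 18194 genes. These ranges are in the same order, and the main test gave 301, 459 and 694. The filter on dim genes kept 10622 genes and gave 99, 181 and 306. Leaving out each array in turn gave medians of the mitotic genes from -0.13 to 0.16 for KDM5A-H483A minus empty vector. They ran from -0.063 to 0.24 for wild-type KDM5A minus empty vector, and from -0.21 to 0.067 for KDM5A-H483A minus wild-type KDM5A, and the cause was not tested. Other settings turned the sign of a small median: the mean of all probe sets gave -0.03 for the first comparison, against 0.02, and repeated quantile normalization gave -0.04 for the second, against 0.03. For first minus second within wild-type KDM5A, the mean of all probe sets, an alternative chosen after seeing the data, gave -0.24, against -0.37, and the second array was then higher for 29 of 32.

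Same-numbered arrays were checked for pairing. Over all genes, their deviations from the group means correlated at 0.53 between KDM5A-H483A and wild-type KDM5A, 0.02 between KDM5A-H483A and the empty vector, and 0.31 between wild-type KDM5A and the empty vector. Over the mitotic genes alone these correlations were 0.38, -0.47 and -0.155. The labels do not say what a number shares across groups, so the main test did not pair samples. These values do not show the 2 KDM5A groups to be unpaired. With the replicate number as a block, limma called 0 genes in each comparison, the medians stayed at 0.02, 0.03 and -0.11, and 502, 713 and 922 genes had an unadjusted p under 0.05, with 0, 4 and 5 mitotic genes among them.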

Other observations

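Other probe sets of the mitotic genes with a mean of at least log2 5 numbered 23. Their difference had the sign of the probe set used for 11 of 23 in KDM5A-H483A minus empty vector, 14 of 23 in wild-type KDM5A minus empty vector and 18 of 23 in KDM5A-H483A minus wild-type KDM5A. A second Cenpe probe set gave 0.58 for KDM5A-H483A minus wild-type KDM5A, against 0.08 for the one used, and a second Tpx2 probe set gave 0.56 for KDM5A-H483A minus empty vector, against 0.27. These were chosen after their values were seen.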
